A study of Schmidtea mediterranea with 36 samples.

Results

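A pair of transcripts of the planarian Schmidtea mediterranea were followed through cell sorting and starvation: smedwi-1 (dresden_comp659_c0_seq1), a PIWI gene used as the standard mark of planarian stem cells, and a transcript matched to EIF2C2 (dresden_comp3861_c0_seq1), an Argonaute. They were chosen by their transcript IDs, and they are 2 of the 26558 transcripts measured. The study sorted cells of asexual planarians by FACS into 3 gates. The X1 gate takes the stem cells that are in S or G2/M, the X2 gate takes G0/G1 stem cells and their progeny, and the Xins gate takes differentiated cells, which withstand irradiation. Each gate was sampled from animals starved for 1, 7 or 30 days (1dS, 7dS and 30dS) after a meal, with 4 replicates in each of the 9 groups and 36 libraries in all. No gene was altered and no drug was given in any of these groups. Each gate is a mixture of cell types defined by DNA content and cytoplasm, and none is a pure cell type.

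PIWI and AGO proteins form the 2 branches of the Argonaute family, which use small RNAs as guides to find other RNAs. PIWI proteins bind piRNAs and are best known for silencing transposons in germ cells and, in planarians, in the stem cells called neoblasts, the dividing cells from which all other cell types of the animal are renewed. smedwi-1 RNA is the usual label for neoblasts, which irradiation removes. AGO proteins bind miRNAs and siRNAs and act in most cell types of animals. EIF2C2 is the older human symbol of AGO2. The study's tables list the transcript with the eIF2 translation initiation factor group, but the protein behind that symbol is no subunit of eIF2.

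The values are TPM, a transcript's share of its library after scaling by transcript length, which the study then normalized separately for each gate. The totals of the normalized values ranged from 638389 to 1935392 per library, and libraries of replicate number 4 had the lowest totals (median 719742) and those of number 3 the highest (median 1286618). Between 16180 and 24825 transcripts were above 0 in a library. The read depth of single libraries is not known from these values. The X2 1dS replicates 1 and 3 stood apart, replicate 1 with the fewest transcripts above 0 and replicate 3 with the largest total. The gates were checked with the few markers annotated for this transcriptome. The kinase cdk1, which drives entry into mitosis, averaged 55.8, 57.4 and 51.1 TPM in X1 at 1dS, 7dS and 30dS after rescaling to equal totals, against 0.115, 0.199 and 0.0449 TPM in Xins. The muscle gene bent averaged 0.721, 0.275 and 0.212 TPM in X1, against 35.95, 31.7 and 19.7 TPM in Xins.

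smedwi-1 was among the most abundant transcripts of X1 at every time. Its normalized TPM in X1 were 1604, 1772, 1518 and 1937 at 1dS, 1075, 1529, 973 and 1442 at 7dS, and 1672, 1231, 1065 and 1345 at 30dS. Between 0.391% and 0.786% of the transcripts detected in an X1 library were higher. In X2 its values were 680, 535, 846 and 703 at 1dS, 227, 341, 195 and 308 at 7dS, and 296, 243, 159 and 273 at 30dS. On these deposited values all 4 X2 libraries at 1dS lay above all 8 later ones, while 7dS and 30dS overlapped. Once rescaled to equal totals, X2 at 1dS, with a lowest value of 437.1 TPM, overlapped X2 at 7dS, with a highest value of 437.4 TPM. In Xins its values were 15.6, 7.77, 9.13 and 9.04 at 1dS, 2.57, 6.01, 6.18 and 8.11 at 7dS, and 1.73, 2.95, 2.14 and 4.62 at 30dS. These are low but were above 0 in all 12 Xins libraries, and between 33.4% and 60.8% of the transcripts detected there were higher.

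The EIF2C2 transcript was present at a moderate and much more even level in all 3 gates. In X1 its values were 41.1, 49.5, 39.2 and 44.6 at 1dS, 36.5, 37.1, 36.6 and 46.2 at 7dS, and 44.5, 40.6, 40.0 and 46.0 at 30dS. In X2 they were 54.4, 68.1, 49.2 and 60.9 at 1dS, 67.1, 50.1, 83.9 and 75.9 at 7dS, and 78.4, 57.8, 61.5 and 66.8 at 30dS. In Xins they were 41.6, 43.1, 60.7 and 55.3 at 1dS, 66.6, 43.8, 58.0 and 64.8 at 7dS, and 85.3, 62.3, 71.3 and 68.0 at 30dS. The times overlapped within each gate, with 1 exception: every Xins library at 30dS was above every Xins library at 1dS. This change did not pass the limma test given below (limma adjusted p = 0.17). On rescaled values these groups overlapped, with a lowest value of 48.8 TPM at 30dS and a highest of 62.3 TPM at 1dS. The share of all transcripts separated without overlap was not counted, here or for smedwi-1, in any comparison of times or gates. The EIF2C2 residual SD between replicates was 0.21 on the log2 scale of the deposited values, against a median of 0.40 for the 1375 transcripts of similar level. After rescaling to equal totals, the scale used between gates, it was 0.49 against 0.41. For smedwi-1 the residual SD was 0.38, against a median of 0.63 for 171 transcripts of similar level, and 0.63 against 0.49 after rescaling. Both transcripts were thus less variable than the median of their level on deposited values and more variable on rescaled values.

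**Figure D1:**
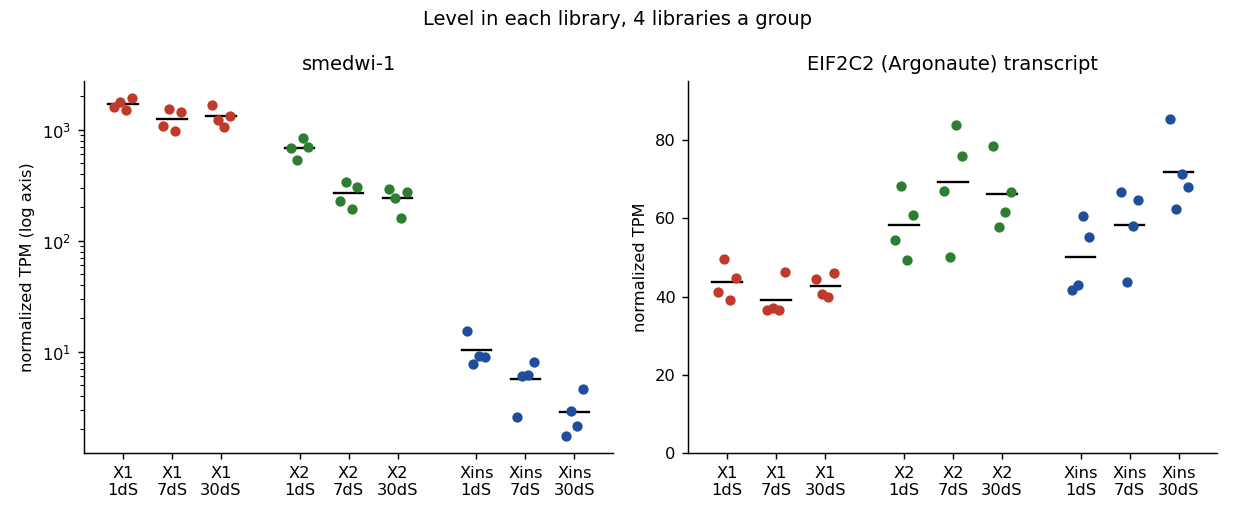
Normalized TPM (vertical axis, log axis for smedwi-1) in each of the 36 libraries, as points, by gate and days of starvation, with bars at the group means. smedwi-1 was highest in X1, lower in X2 and lay between 1.73 and 15.6 in Xins, while the EIF2C2 transcript stayed between 36.5 and 85.3 in all 9 groups.

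The gates were compared at each time after every library was rescaled to a total of 1000000, since the 3 tables had been normalized apart. The test was limma with a trend on log2(TPM + 1), and the threshold was a Benjamini-Hochberg adjusted p of 0.01 over all transcripts with a mean of at least 1. Replicates are not said to come from separate cultures of animals at 1dS and 7dS, so the p-values speak only of the spread among the libraries of a group, which may be technical.

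smedwi-1 was higher in X1 than in X2 at every time, by about 3-fold at 1dS and about 5-fold later. At 1dS it averaged 1626 ± 486 TPM in X1 and 576 ± 193 TPM in X2 (SD, n = 4 each), a log2 difference of 1.496 (SE 0.28, limma adjusted p = 0.0020). At 7dS it averaged 1411 ± 584 TPM in X1 and 309 ± 135 TPM in X2 (SD, n = 4 each), a log2 difference of 2.21 (SE 0.45, limma adjusted p = 0.0020). At 30dS the log2 difference was 2.31 (SE 0.45, limma adjusted p = 0.0014). At none of these times did the X1 and X2 libraries overlap, but the share of all transcripts separated in this way was not counted. Of all transcripts tested, 8.39% at 1dS, 21.1% at 7dS and 25.4% at 30dS differed between X1 and X2. With quantile normalization the 1dS difference was 1.19 and missed the threshold (limma adjusted p = 0.015).

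The separation of smedwi-1 from the differentiated gate was among the largest of all transcripts. At 1dS it averaged 8.65 ± 1.65 TPM in Xins (SD, n = 4), and X1 exceeded this by 7.36 on the log2 scale (SE 0.28, limma adjusted p = 1.7e-10). At 7dS the log2 difference was 7.52 (SE 0.45, limma adjusted p = 8.6e-09) and at 30dS it was 8.42 (SE 0.45, limma adjusted p = 5.8e-09). Only 3 of 16297 transcripts at 1dS, 4 of 17713 at 7dS and 2 of 16665 at 30dS had a larger X1 minus Xins difference. Differences between X1 and Xins were common, with 53.4%, 55.3% and 57.4% of transcripts past the threshold at 1dS, 7dS and 30dS, and the median over all transcripts was -0.56, -0.67 and -0.76, that is, lower in X1. The smedwi-1 difference was therefore opposite in sign to the median transcript.

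X2 also held far more smedwi-1 RNA than Xins. The log2 difference was 5.87 at 1dS, 5.32 at 7dS and 6.11 at 30dS, with limma adjusted p of 3.0e-09, 5.3e-07 and 2.6e-07, and the X2 and Xins libraries did not overlap. Between these gates 42.5%, 41.4% and 39.6% of transcripts passed at 1dS, 7dS and 30dS. Expressed as a share of the X1 mean at the same time, smedwi-1 stood at 35.4%, 21.9% and 20.8% in X2 and at 0.532%, 0.502% and 0.238% in Xins, at 1dS, 7dS and 30dS. For cdk1 the same shares were 13.6%, 3.97% and 6.67% in X2 and 0.206%, 0.348% and 0.0879% in Xins. cdk1 was thus close to 0 in Xins, and 1 Xins library at 30dS was at 0.

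The EIF2C2 transcript did not pass the threshold in any of the 9 comparisons between gates. At 1dS it averaged 41.2 ± 10.1 TPM in X1, 51.0 ± 22.01 TPM in X2 and 44.4 ± 15.2 TPM in Xins (SD, n = 4 each). X1 minus X2 was then -0.23 with a 95% confidence interval of -0.98 to 0.53, so a difference of up to about 2-fold was within the error. At 7dS it averaged 43.4 ± 14.8 TPM in X1, 76.1 ± 21.5 TPM in X2 and 68.1 ± 22.9 TPM in Xins. X1 minus X2 was -0.82 (SE 0.29, limma adjusted p = 0.047) and X1 minus Xins was -0.64 (SE 0.29, limma adjusted p = 0.068). At 30dS X1 minus X2 was -0.76 (SE 0.31, limma adjusted p = 0.079) and X1 minus Xins was -0.75 (SE 0.31, limma adjusted p = 0.053). X2 minus Xins lay between 0.01 and 0.17 at the 3 times.

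The lower EIF2C2 level in X1 depended on how replicates were handled and is to be read against the median transcript. At 7dS and 30dS, libraries of the same replicate number deviated together, and a fit with the replicate number as a block called the transcript lower in X1 than in X2 (limma adjusted p = 0.00021 at 7dS and 6.2e-05 at 30dS). The blocked fit also called it lower in X1 than in Xins (limma adjusted p = 0.00066 at 7dS and 2.9e-05 at 30dS). It called 7919 and 8398 transcripts between X1 and X2 at 7dS and 30dS, against 3746 and 4234 without the block, 13003 and 12605 between X1 and Xins, against 9796 and 9567, and 11180 and 10223 between X2 and Xins, against 7334 and 6599. The median transcript differed by -0.18 and -0.41 between X1 and X2 and by -0.67 and -0.76 between X1 and Xins, so the EIF2C2 difference from Xins was about that of the median transcript. With median-of-ratios scaling, which sets the median near 0, X1 minus Xins was 0.22 at 7dS and 0.20 at 30dS, with the opposite sign.

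Ordered by mean rescaled level, smedwi-1 ran through the gates without mixing: X1 at 1dS, 7dS and 30dS, then X2 at 1dS, 7dS and 30dS, then Xins at 1dS, 7dS and 30dS. The ranges of neighbouring groups overlapped at every step of this order except between X2 at 30dS, with a lowest value of 130 TPM, and Xins at 1dS, with a highest value of 10.2 TPM. X1 at 30dS, with a lowest value of 828 TPM, overlapped X2 at 1dS, with a highest value of 861 TPM. For EIF2C2 the order was X2 30dS, X2 7dS, Xins 30dS, Xins 7dS, X2 1dS, X1 30dS, Xins 1dS, X1 7dS and X1 1dS. No neighbouring groups in it were separated, and the means spanned 41.2 to 77.7 TPM.

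**Figure D2:**
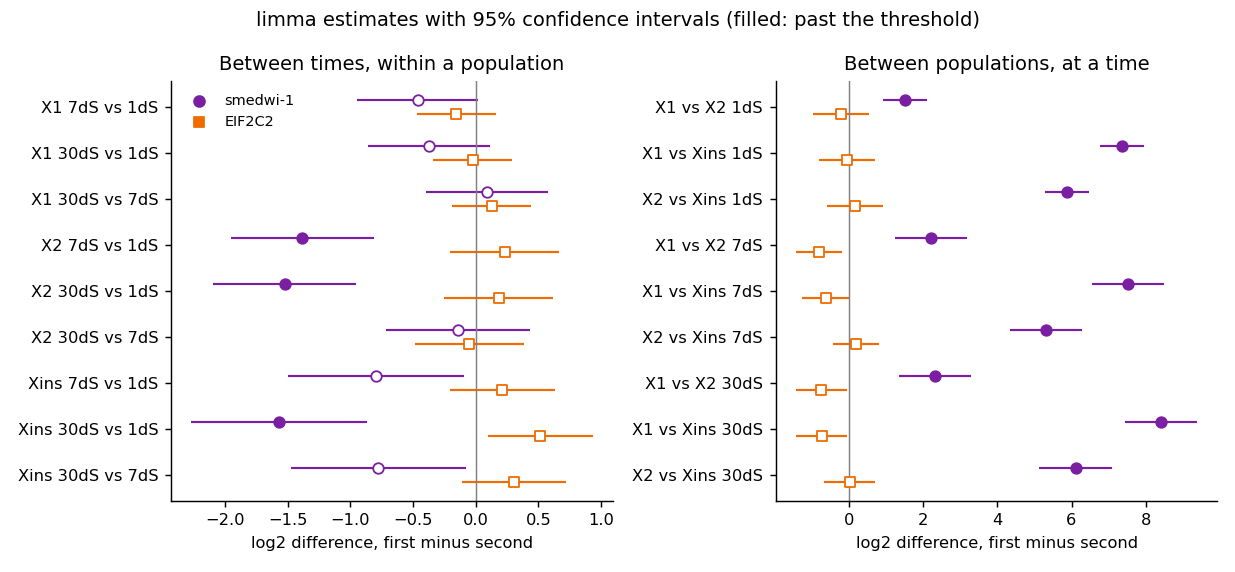
limma log2 differences with 95% confidence intervals for smedwi-1 (circles) and EIF2C2 (squares), between times on the left and between gates on the right, with filled symbols where the adjusted p passed 0.1 for times or 0.01 for gates. All 9 smedwi-1 differences between gates are filled, with values from 1.496 to 8.42, and no EIF2C2 symbol is filled.

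The times were compared within each gate on the deposited values, with the 12 libraries of a gate in 1 limma fit and a threshold of 0.1 on the adjusted p. In X1, neither transcript passed. smedwi-1 averaged 1255 ± 272 TPM at 7dS and 1708 ± 186 TPM at 1dS (SD, n = 4 each), a log2 change of -0.46 (95% confidence interval -0.95 to 0.02, limma adjusted p = 0.23). At 30dS it averaged 1328 ± 256 TPM, a log2 change of -0.38 from 1dS (95% confidence interval -0.86 to 0.11, limma adjusted p = 0.37). The log2 estimates for EIF2C2 were -0.15 at 7dS and -0.02 at 30dS relative to 1dS, with 95% confidence intervals of -0.47 to 0.16 and -0.34 to 0.29. After rescaling to equal totals these 2 EIF2C2 estimates were 0.05 and 0.11, with the opposite sign. Of all transcripts in X1, 13.7% changed at 7dS and 9.79% at 30dS relative to 1dS, and 0.00754%, a single transcript, between 30dS and 7dS. These counts depended on single libraries: 1816 transcripts passed at 7dS, against 872 without X1 7dS replicate 3, and 1299 at 30dS, against 616 without X1 30dS replicate 2.

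smedwi-1 fell in X2, the gate of G0/G1 stem cells and progeny, between 1dS and the later times. It averaged 268 ± 68.4 TPM at 7dS and 691 ± 127 TPM at 1dS (SD, n = 4 each), a log2 change of -1.38 (SE 0.26, limma adjusted p = 0.010). At 30dS it averaged 243 ± 59.8 TPM, a log2 change of -1.52 from 1dS (SE 0.26, limma adjusted p = 0.0046). Between 30dS and 7dS the change was -0.14 (95% confidence interval -0.71 to 0.43). In X2, 16.4% of transcripts changed at 7dS and 20.7% at 30dS relative to 1dS, and 0.127% between 30dS and 7dS. Leaving out 1 library moved the 2453 calls at 7dS to between 1469 (without X2 7dS replicate 1) and 3855 (without X2 1dS replicate 4), and the 3104 calls at 30dS to between 1676 (without X2 30dS replicate 1) and 4430 (without X2 1dS replicate 4). Of 15003 transcripts, 262 had a more negative change than smedwi-1 at 7dS and 167 at 30dS.

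The fall of smedwi-1 in X2 kept its sign but not its call under other scalings of the libraries. After rescaling to equal totals it was -0.96 at 7dS and -1.06 at 30dS (limma adjusted p = 0.16 and 0.10), and after quantile normalization -0.89 and -0.95 (limma adjusted p = 0.18 and 0.14). With median-of-ratios scaling it was -1.45 and -1.60 and passed (limma adjusted p = 0.016 and 0.0073). Leaving out any 1 of the 8 libraries compared, the 2 that stood apart included, gave changes from -1.51 to -1.24 at 7dS and from -1.64 to -1.33 at 30dS, all past the threshold. In a sorted bulk sample, fewer smedwi-1 cells in the gate and less smedwi-1 RNA per cell cannot be told apart.

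cdk1 and most transcripts of the study's mitotic S phase list also fell in X2. cdk1 fell to 2.01 ± 0.48 TPM at 7dS, against 9.72 ± 3.35 TPM at 1dS (SD, n = 4 each), a log2 change of -1.79 (limma adjusted p = 0.0040), and at 30dS the change from 1dS was -1.38 (limma adjusted p = 0.0043). On rescaled values cdk1 in X2 averaged 7.61, 2.28 and 3.41 TPM at 1dS, 7dS and 30dS. Neither cdk1 nor the S phase list was tested between times on that scale. Of the 19 transcripts of the S phase list, 17 were measured above the minimum in X2. Of these, 16 were lower at 7dS and 16 at 30dS and none was higher, with medians of -1.25 and -1.36, beside 0.05 and 0.04 over all transcripts, of which 6.79% were lower at 7dS and 8.19% at 30dS. The list did not follow the gates as cdk1 did: its summed level in X2 at 1dS was 98.3% of that in X1, against 13.6% for cdk1. The estimates for the muscle gene bent in X2 were 0.34 and 0.39 and did not pass (limma adjusted p = 0.61 and 0.53). The part of cell mixture in the smedwi-1 change was not tested.

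In X1 the same list moved while smedwi-1 and cdk1 did not pass. Of 18 S phase transcripts measured, 16 were lower at 7dS and 17 at 30dS relative to 1dS, with medians of -1.08 and -0.99, while 6.92% and 4.36% of all X1 transcripts were lower. The study picked this list on these X1 libraries, so its direction in X1 is not independent evidence. At 7dS and 30dS same-numbered libraries deviated together across gates, so the X2 and Xins counts are not fully independent of that choice either. The log2 estimates for cdk1 in X1 were -0.15 at 7dS and -0.22 at 30dS (limma adjusted p = 0.61 and 0.46). As a share of its 1dS mean, smedwi-1 in X1 was at 73.5% at 7dS and 77.8% at 30dS, against 42.2% and 45.9% for the summed S phase list. In X2 the shares were 38.8% and 35.2% for smedwi-1, and 34.4% and 32.1% for the list. These shares are of deposited values and depend on the scaling. On rescaled values smedwi-1 averaged 1626, 1411 and 1406 TPM in X1 at 1dS, 7dS and 30dS, and 576, 309 and 292 TPM in X2. The summed list averaged 2878, 1438 and 1468 TPM in X1, and 2829, 1365 and 1303 TPM in X2.

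**Figure D3:**
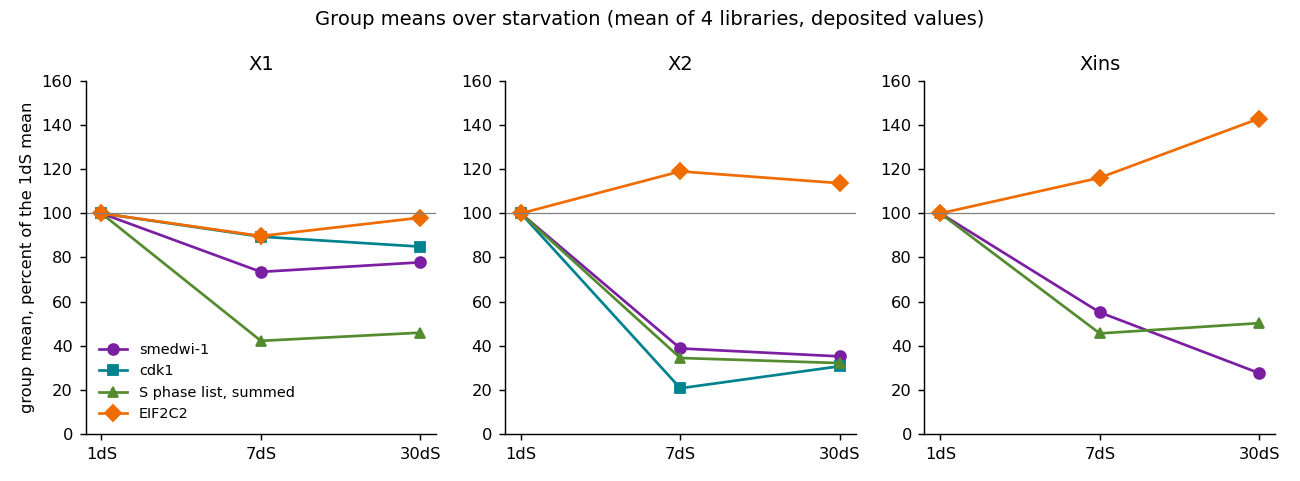
Group means of 4 libraries as a percent of the 1dS mean of the same gate (vertical axis, deposited values) by days of starvation, for smedwi-1, EIF2C2, the summed 19 transcripts of the S phase list and cdk1, which is left out of Xins, where it was near 0. In X2 smedwi-1 stood at 38.8% and 35.2% of its 1dS mean and EIF2C2 at 119% and 114%.

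In Xins smedwi-1 was lower at 30dS than at 1dS. It averaged 2.86 ± 1.28 TPM at 30dS and 10.4 ± 3.51 TPM at 1dS (SD, n = 4 each), a log2 change of -1.57 (SE 0.32, limma adjusted p = 0.022), and the 2 groups did not overlap. At 7dS it averaged 5.72 ± 2.31 TPM, a change of -0.79 from 1dS (limma adjusted p = 0.23), with overlap. At 7dS and 1dS the Xins libraries of the same number deviated together, and with the replicate block this change passed (limma adjusted p = 0.094), as did 4793 transcripts against 869 without the block. Between 30dS and 7dS the change was -0.78 (limma adjusted p = 0.98, unadjusted 0.033). Of all transcripts in Xins, 5.11% changed at 7dS and 7.16% at 30dS relative to 1dS, and 0.141% between 30dS and 7dS. Without Xins 7dS replicate 1 the 869 calls at 7dS became 359, and without Xins 30dS replicate 1 the 1217 calls at 30dS became 420.

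The Xins change rests on low values and on the scaling. After rescaling to equal totals it was -1.30 at 30dS and did not pass (limma adjusted p = 0.15). The 30dS and 1dS groups then overlapped, with a highest value of 7.06 TPM at 30dS and a lowest of 6.39 TPM at 1dS. Of the S phase list, 15 transcripts were measured in Xins, and 9 were lower at 7dS and 7 at 30dS relative to 1dS, beside 3.06% and 3.85% of all transcripts. The summed level of the list in Xins was 735 ± 117 TPM at 30dS and 1463 ± 483 TPM at 1dS (SD, n = 4 each). The median S phase transcript stood in Xins at 38.8%, 52.5% and 50.8% of its X1 level at 1dS, 7dS and 30dS, well above the share of cdk1. Whether the smedwi-1 RNA in Xins came from stem cells that passed the gate was not tested.

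EIF2C2 had positive estimates for 7dS and 30dS against 1dS in X2 and Xins, and none passed the threshold. In X2 it averaged 69.2 ± 14.5 TPM at 7dS and 66.1 ± 8.94 TPM at 30dS, and 58.2 ± 8.18 TPM at 1dS (SD, n = 4 each). The log2 changes from 1dS were 0.23 (95% confidence interval -0.20 to 0.67) and 0.18 (95% confidence interval -0.25 to 0.62). In Xins it averaged 71.7 ± 9.76 TPM at 30dS and 50.2 ± 9.32 TPM at 1dS, a log2 change of 0.52 (95% confidence interval 0.10 to 0.93, limma adjusted p = 0.17, unadjusted 0.019). At 7dS the Xins change from 1dS was 0.21 (limma adjusted p = 0.65).

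The eIF2 and eIF2B groups, with which the study's table lists EIF2C2, held transcripts that fell with starvation on deposited values and none that passed as higher. eIF2 brings the initiator tRNA to the ribosome, and eIF2B recharges it with GTP. The groups were taken as the study lists them, with EIF2A and EIF5 among them, and were not limited to subunits of eIF2 and eIF2B. Of the 11 other transcripts of these groups, 2 copies matched to EIF2S2 were below the minimum level, 1 of them in every gate and 1 in X2 and Xins, which left 10 measured in X1 and 9 in each of X2 and Xins. In X2, 7 of 9 were lower at 7dS and 6 of 9 at 30dS relative to 1dS, with medians of -0.93 and -0.92, beside 6.79% and 8.19% of all transcripts. In X1, 3 of 10 were lower at each time, with medians of -0.67 and -0.60, beside 6.92% and 4.36% of all transcripts. In Xins, 2 of 9 were lower at each time, with medians of -0.68 and -0.42, beside 3.06% and 3.85% of all transcripts. None passed as higher in any gate, and every estimate relative to 1dS was negative on these deposited values. After rescaling to equal totals not every group mean was below 1dS. EIF2B1 in Xins averaged 12.3, 12.7 and 14.9 TPM at 1dS, 7dS and 30dS, and EIF5 in X2 averaged 112.6, 115.1 and 117.6 TPM. An EIF2S1 transcript (dresden_comp2437_c0_seq1) in X2 was still lower, with 79.5, 42.3 and 47.3 TPM. The medians over all transcripts lay between -0.07 and 0.05 in these 6 comparisons.

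A transcript matched to EIF2S1, the alpha subunit of eIF2 (dresden_comp2437_c0_seq1), averaged 37.4 ± 6.24 TPM at 7dS and 99.1 ± 25.8 TPM at 1dS in X2, a log2 change of -1.36 (limma adjusted p = 0.0055). In X1 the same transcript changed by -1.37 at 7dS (limma adjusted p = 0.0042), and in Xins by -1.11 (limma adjusted p = 0.0071). EIF2S2 (dresden_comp3764_c0_seq1), the beta subunit, changed by -0.81 at 7dS in X2 (limma adjusted p = 0.035). EIF2B2, a subunit of eIF2B, changed by -0.93 at 7dS in X2 (limma adjusted p = 0.075). 3 transcripts carry the symbol EIF2S1, and reads may be split between such copies, so the single values are uncertain. The study chose its translation table on comparisons of these X1 libraries, so the X1 counts are not independent evidence of direction.

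**Figure D4:**
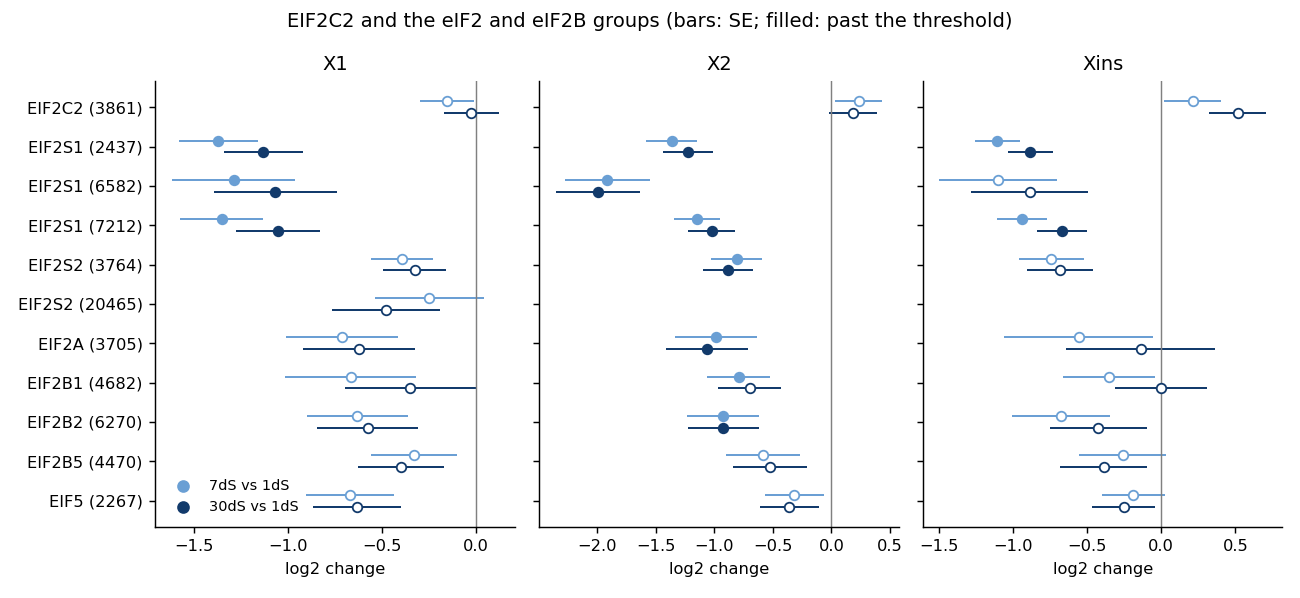
limma log2 changes from 1dS (horizontal axis, bars are SE) at 7dS and 30dS in X1, X2 and Xins for EIF2C2 in the top row and 10 transcripts of the eIF2 and eIF2B groups under it, with the number of the transcript ID in brackets and filled points where the adjusted p passed 0.1. EIF2C2 lies between -0.15 and 0.52 and is never filled, while the others lie at or below 0, down to -1.99 in X2.

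Between gates, several transcripts of these groups were higher in X1. At 1dS, 6 of 9 measured members of the 2 groups were higher in X1 than in Xins, at 7dS 4 of 9 and at 30dS 6 of 9, and none was lower. Of all transcripts, 16%, 14.3% and 15.3% were higher in X1 than in Xins at 1dS, 7dS and 30dS. Their medians were 1.27, 0.71 and 0.76, whereas X1 minus Xins for EIF2C2 was -0.07, -0.64 and -0.75. EIF2B1, a subunit of eIF2B, was 2.03 higher on the log2 scale in X1 than in Xins at 1dS (limma adjusted p = 2.9e-06).

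Whether starvation acted differently between the gates was tested as an interaction over all 36 rescaled libraries. Neither transcript passed the threshold of 0.1 in any of the 6 comparisons. For smedwi-1 the change at 7dS in X1 exceeded that in X2 by 0.71 on the log2 scale (95% confidence interval -0.51 to 1.93, limma adjusted p = 0.96). At 30dS the excess was 0.82 (95% confidence interval -0.40 to 2.04, limma adjusted p = 0.83). Against Xins the X1 change of smedwi-1 exceeded by 0.16 at 7dS and 1.06 at 30dS (limma adjusted p = 1.00 and 0.64). smedwi-1 passed the threshold between times in X2 and not in X1, and whether its change differed between these gates depended on the fit. At 30dS the interaction of X1 with X2 passed with median-of-ratios scaling (1.23, limma adjusted p = 0.097). It also passed with a block of time and replicate number, which ties the gates at a time (limma adjusted p = 0.098). The interaction of X1 with Xins passed with this block as well (limma adjusted p = 0.031). Same-numbered libraries of these gates deviated together at 30dS but not all at 1dS. For EIF2C2 the same differences lay between -0.67 and 0.02, with limma adjusted p from 0.81 to 1.00. Few transcripts passed anywhere, 1.5%, 1.66% and 2.3% at 7dS and 2.72%, 1.91% and 3.46% at 30dS for X1 minus X2, X1 minus Xins and X2 minus Xins.

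The ratio of the 2 transcripts was taken within each library, where the scaling of the library cancels apart from the 1 that was added to each TPM. On rescaled values the log2 ratio with 1 added moved by at most 0.025 in X1 and X2 and by -0.084 to 0.19 in Xins, where smedwi-1 was low. The log2 ratio of smedwi-1 to EIF2C2, each plus 1, was 5.25, 5.13, 5.24 and 5.41 in X1 at 1dS, 4.84, 5.33, 4.69 and 4.93 at 7dS, and 5.20, 4.89, 4.70 and 4.84 at 30dS. In X2 it was 3.62, 2.95, 4.08 and 3.51 at 1dS, 1.75, 2.74, 1.204 and 2.01 at 7dS, and 1.90, 2.05, 1.36 and 2.02 at 30dS. In Xins it was -1.36, -2.33, -2.61 and -2.49 at 1dS, -4.24, -2.67, -3.04 and -2.85 at 7dS, and -4.98, -4.00, -4.52 and -3.62 at 30dS. smedwi-1 thus exceeded EIF2C2 in every X1 and X2 library and was below it in every Xins library. By the group means the ratio was 38.3-fold, 30.9-fold and 30.0-fold in X1, 11.6-fold, 3.80-fold and 3.56-fold in X2, and 0.218-fold, 0.109-fold and 0.0514-fold in Xins, at 1dS, 7dS and 30dS. With nothing added the Xins ratios were 0.202-fold, 0.0917-fold and 0.0374-fold.

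An exact two-sided permutation test over the 70 arrangements of 4 against 4 libraries was run for each of 18 comparisons, and the smallest p it can give is 0.0286. The ratio was lower at 7dS than at 1dS in X2, by a log2 difference of -1.61, and at 30dS by -1.71, without overlap (exact p = 0.0286 each, adjusted over the 18 comparisons 0.0396). In Xins it was lower at 7dS by -1.01 and at 30dS by -2.09 relative to 1dS, also without overlap (exact p = 0.0286 each, adjusted 0.0396). Same-numbered Xins libraries deviated together at 7dS and 1dS, which this test ignores. The ratio was lower at 7dS in all 4 of these pairs, by -2.88 to -0.34. In X1 the differences from 1dS were -0.31 at 7dS and -0.35 at 30dS (exact p = 0.114 and 0.0571, adjusted 0.129 and 0.0735). Between 30dS and 7dS no gate passed, with differences of -0.04 in X1, -0.09 in X2 and -1.08 in Xins (exact p = 0.771, 0.943 and 0.0857). In Xins, where same-numbered libraries deviated together at these times, the ratio was lower at 30dS in all 4 pairs, by -1.48 to -0.74. An exact test over 4 pairs cannot go under 0.05. All 9 differences between gates reached the smallest p. They are part of the 18 and lower the adjusted p of 0.0396 for the time comparisons. The time comparisons were not adjusted on their own. X1 minus X2 was 1.72 at 1dS, 3.02 at 7dS and 3.08 at 30dS. Whether the change of the ratio differed between gates was not tested.

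**Figure D5:**
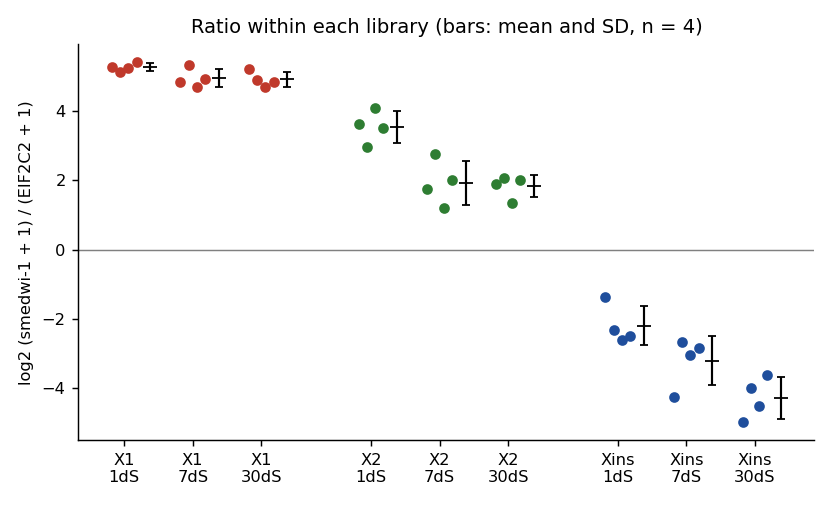
log2 ratio of smedwi-1 to EIF2C2 (vertical axis, 1 added to each TPM) in each library by gate and days of starvation, with the group mean and SD (n = 4) beside the points. The X2 libraries at 1dS, from 2.95 to 4.08, lie above those at 7dS and 30dS, from 1.204 to 2.74, and the Xins libraries lie below 0.

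The transcripts with the pattern most like each member were ranked by Pearson's r over the 36 libraries on log2(rescaled TPM + 1), among 7979 other transcripts with a mean of at least 10. The libraries share their gates, totals and composition, so these values are a description. For smedwi-1, 525 transcripts had r above 0.9, and the top 2, which carry no symbol, were dresden_comp5987_c0_seq1 and dresden_comp2444_c0_seq1 (r = 0.988 each). The top 3 with a symbol were the chaperones HSPA8 (dresden_comp1332_c0_seq1, r = 0.969), TRAP1 (r = 0.959) and HSPD1 (dresden_comp141_c0_seq1, r = 0.958). They ranked 41, 85 and 87 among the 7979. For EIF2C2, 16 transcripts had r above 0.9, and the top 2, again without a symbol, were dresden_comp4933_c0_seq1 (r = 0.935) and dresden_comp2939_c0_seq1 (r = 0.933). The top 3 with a symbol were the elongation factor EEF1A1 (dresden_comp6388_c0_seq1, r = 0.876), the unfolded protein response factor atf6 (r = 0.841) and the co-chaperone dnajb9 (r = 0.784). They ranked 48, 109 and 343 among the 7979. With Spearman's rho in place of r, 0 of these 5 transcripts remained for smedwi-1 and 2 of 5 for EIF2C2. Only 151 transcripts carry a symbol. The study's tables that give the symbols include lists of protein folding and translation transcripts, so the classes of the named transcripts are not a result.

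The 2 members did not share a pattern over all libraries, with r = -0.228 and rho = -0.286 (n = 36). Within X1 they did, with r = 0.882 (n = 12), while in X2 r was 0.0726 and in Xins -0.0884 (n = 12 each). smedwi-1 and cdk1 had r = 0.907 over the 36 libraries, 0.871 within X1, 0.792 within X2 and 0.434 within Xins. All of these values, for both pairs, were computed on rescaled TPM, in which a library's total enters both transcripts. They were not computed on deposited values, so the part of shared scaling in them was not measured.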

How the data were processed

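RNA-seq of FACS-sorted X1, X2 and Xins cells at 1dS, 7dS and 30dS was used, 36 libraries in 3 tables of 26558 transcripts. The authors estimated TPM with kallisto 0.43.0 on the Dresden transcriptome after removing ribosomal reads, and deposited the signal values as normalized TPM after dividing by Sleuth size factors, per gate. These are not counts. The study gives its reads as a sum over all libraries, so the depth of each library is unknown and no counting interval was given. 0 columns lacked a sample.

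log2(value + 1) was fitted with limma 3.58.1 under R 4.3.3, with an intensity trend, for transcripts with a mean of at least 1: times within a gate on deposited values (adjusted p under 0.1), gates at a time and interactions after rescaling each library to 1000000 (0.01 and 0.1). The study used 0.1 for times in X1 and 0.01 for X1 against Xins, and these were extended here to the other gates and, at 0.1, to the interactions. Means, SDs and ratios were computed with Python 3.11.15, numpy 2.4.6, pandas 2.3.3 and scipy 1.17.1, and plots with matplotlib 3.10.9. The fits were tested on simulated data.

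Members, lists and the rule for named transcripts (the members, up to 3 of the eIF2 and eIF2B groups in each comparison, cdk1, the S phase list, the muscle marker bent, and the 2 unnamed and 3 named transcripts most like each member) were chosen with earlier results of these data known. 151 transcripts have a symbol in the study's tables. The ID of smedwi-1 was taken with the choice of members and was not checked by sequence.

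The labels do not tie a replicate number to a day or to the same animals. Same-numbered libraries deviated together (r over transcripts above 0.1 in all 4 pairs) in the 6 comparisons of gates at 7dS and 30dS, where r lay between 0.188 and 0.839, and in X1 30dS against 7dS, Xins 7dS against 1dS and Xins 30dS against 7dS, and not in the other comparisons. The replicate block is therefore given there. In X1 and Xins at 30dS against 7dS it changed the calls over all transcripts to 0 and 128, against 1 and 24, and no call of a member. Alternatives were other scalings, pseudocounts, filters, fits and leaving out each replicate.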

Additional observations from a re-analysis of the deposited data

Results flagged for a closer look

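EIF2C2 in X1 at 7dS had 1 library far from the others. The replicates 1, 2 and 3 were at 36.5, 37.1 and 36.6 normalized TPM and replicate 4 at 46.2, and the gap took 0.931 of the range of the group on the log2 scale, past Dixon's 95% critical value for 4 libraries. Of 45 groups checked, on deposited and rescaled values and on the ratio, 1 was past it, and chance alone gives about 1 in 20. On rescaled values the same group was not past it.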

How the results depend on the processing

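The differences of smedwi-1 between X1 and Xins and between X2 and Xins passed under every alternative run, as did X1 against X2 at 7dS and 30dS. X1 against X2 at 1dS missed only under quantile normalization (1.19). The falls of smedwi-1 relative to 1dS missed the threshold on rescaled values (-0.96 in X2 at 7dS, -1.06 in X2 at 30dS and -1.30 in Xins at 30dS), and in X2 also after quantile normalization (-0.89 at 7dS and -0.95 at 30dS). The totals differ by replicate number, and the deposited and rescaled values weigh them differently. The cause was not tested.

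The EIF2C2 differences of X1 from X2 on deposited values passed at 7dS (-0.79) and 30dS (-0.61), as did X1 from Xins at 30dS (-0.73). Its small differences changed sign in some fits: X1 against 1dS on rescaled values (0.053 at 7dS, 0.11 at 30dS) and after quantile normalization (0.040, 0.15), X2 at 30dS against 7dS after quantile normalization (0.015), X1 against Xins with median-of-ratios scaling (0.66 at 1dS, 0.22 at 7dS, 0.20 at 30dS) and quantile normalization (0.25 at 1dS), and X2 against Xins at 30dS on deposited values (-0.12). With median-of-ratios scaling the interaction of X2 and Xins was -0.040 for EIF2C2 at 7dS and -0.15 for smedwi-1 at 30dS, with the opposite sign. The interaction of X1 and X2 for smedwi-1 at 30dS passed with that scaling (1.23), and that of X1 and Xins passed on deposited values (1.19).

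With the replicate block, where the numbers pair the libraries, the EIF2C2 differences of X1 from X2 (-0.82 at 7dS, -0.76 at 30dS) and from Xins (-0.64 at 7dS, -0.75 at 30dS) passed, as did the smedwi-1 change in Xins at 7dS against 1dS (-0.79). In Xins at 30dS against 1dS, where they share only a number, the replicate block let EIF2C2 pass (0.52). For interactions the block was time and replicate number. With it the smedwi-1 interactions at 30dS of X1 with X2 (0.82) and with Xins (1.06) passed. Same-numbered libraries of these gates deviated together at 30dS but not all at 1dS. The blocks changed no other call of a member. For the ratio, an exact test over 4 pairs cannot go under 0.05. No exact test was run on 4 against 3 libraries. Only values were compared without a replicate, and no difference that had passed changed sign.

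Leaving out 1 replicate changed no call of either member. It changed the sign of small differences, with these ranges: smedwi-1 at 30dS against 7dS, -0.028 to 0.19 in X1 and -0.28 to 0.048 in X2; EIF2C2 in X1 at 30dS against 1dS, -0.073 to 0.036, and in X2 at 30dS against 7dS, -0.19 to 0.050; EIF2C2 in X1 against Xins at 1dS, -0.31 to 0.11; EIF2C2 in X2 against Xins, -0.083 to 0.44 at 1dS, -0.0030 to 0.38 at 7dS and -0.18 to 0.20 at 30dS. Among interactions the ranges were -0.19 to 0.47 for smedwi-1 in X1 and Xins at 7dS, and for EIF2C2 in X2 and Xins -0.27 to 0.26 at 7dS and -0.43 to 0.10 at 30dS. Depth is not known per library, and its effect on the low Xins values was not measured.

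Counts over all transcripts moved by more than 1.5 times in several fits. On rescaled values X1 had 782 calls at 7dS and 623 at 30dS against 1dS, beside 1816 and 1299. With only both groups in the fit there were 1033 and 794 in X1, 161 and 670 in Xins, beside 869 and 1217, and 1048 in X2 at 7dS, beside 2453. X1 against X2 at 1dS had 1367 calls, and between 2236 and 2730 on deposited values, with median-of-ratios scaling, quantile normalization or all libraries in 1 fit. The block gave 5087 and 5706 calls in X2 at 7dS and 30dS against 1dS, beside 2453 and 3104. For interactions, main counts of 256 to 589 became 61 to 1397 in fits without the block and 1706 to 2931 with it.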
